A study of Mus musculus with 4 samples.

Results

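The proteasome genes described here are the mouse genes with a name made of Psm, a letter from a to g and a number, except *Psmb8*, *Psmb9* and *Psmb10*, which encode the catalytic subunits of the immunoproteasome. The rule took 46 of the 25655 genes in the files. Of the 51 names that start with Psm, it left out those 3 genes and *Psmc3ip* and *Psme3ip1*, which are named after the proteasome proteins that their products bind. The 46 genes are 16 core genes (8 *Psma* and 8 *Psmb*), 20 regulatory genes (6 *Psmc* and 14 *Psmd*), 5 activator genes (*Psme*), and 5 others, the inhibitor gene *Psmf1* and the assembly chaperone genes *Psmg1* to *Psmg4*. They lie on 16 chromosomes.

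The proteasome is the protease that degrades most short-lived, damaged or misfolded proteins of the cytosol and nucleus after they have been tagged with ubiquitin. Its core is a barrel of stacked rings, with alpha subunits that gate the entry and beta subunits that hold the cutting sites inside. A regulatory particle with a ring of ATPases binds ubiquitin chains, unfolds the protein and feeds it into the core, and activators can cap the barrel in its place. In neutrophils, as in other leukocytes, it degrades the inhibitor of NF-κB and the short-lived survival protein MCL1, and interferon induces the immunoproteasome subunits that replace its standard catalytic subunits.

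RNA-Seq was performed on neutrophils (CD45.2+CD11b+Ly6G+) that were sorted from mouse hearts on day 3 after myocardial ischemia and reperfusion (MI/R) into SiglecF hi and SiglecF lo cells, which the labels call SiglecF plus and minus. CD300a is an inhibitory receptor of myeloid cells, and the study asked how its loss alters these neutrophils. The 4 groups were SiglecF lo and SiglecF hi neutrophils of WT mice, and SiglecF lo and SiglecF hi neutrophils of *Cd300a-/-* mice, which lack CD300a in every cell type. All groups underwent MI/R, so no group shows the uninjured heart. Each group is 1 library made from 8 pooled hearts, and the male mice were of the C57BL/6 background. With 1 library per group there is no replicate, no difference was tested, and the values describe these 4 libraries.

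Throughout, 4 values in a row are given in the order WT SiglecF lo, *Cd300a-/-* SiglecF lo, WT SiglecF hi and *Cd300a-/-* SiglecF hi. The counts on genes summed to 9631901, 10988619, 19278243 and 17632989 in that order. Levels are in TPM, a unit that allows for exon length and library size, so that genes can be compared with each other. A difference is the log2((TPM + 1) ratio) of 2 libraries, which understates the change of low genes. A gene was tested when its mean TPM over the 4 libraries was above 10, which held for 6523 genes and 43 of the 46 proteasome genes, and it was called higher or lower past 0.5 or -0.5. Parentheses after a ratio hold its 95% counting interval, which covers counting error only and takes each count as independent. PCR copies of a molecule are counted again when no molecular identifier marks them, so the interval can be too narrow even for that error. Positions in the genome are those of the files, on the build GRCm39 that the submitters' processing notes name.

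*Cd300a*, the targeted gene, was read first as a check of the labels. It had 3024, 28, 6640 and 27 counts, or 127, 1.06, 163 and 0.740 TPM. Both *Cd300a-/-* libraries were thus near 0 and both WT libraries were high, as their labels say. Of the genes used for sorting, *Siglecf* had 11.3, 15.3, 354 and 405 TPM and *Ly6g* had 330.4, 889, 11.1 and 41.9 TPM. *Siglecf* separated the subsets as labelled, while *Ly6g* was low at the RNA level in both SiglecF hi libraries. The neutrophil genes *S100a8*, *S100a9*, *Csf3r*, *Cxcr2*, *Retnlg*, *Mmp8* and *Mmp9* together had 154600, 203400, 27490 and 32480 TPM, led by *S100a9*. They were present in each library, and their sum was lower in the SiglecF hi libraries. The 10 most abundant genes held 22.8, 26.7, 12.3 and 11.8% of all TPM. TPM is a share of a fixed total, so levels of different genes within a library are not independent of each other.

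The proteasome genes were expressed well above the typical gene. Their median level (mean of the 4 libraries) was 75.9 TPM, against 32.8 TPM for all genes tested. The core genes lay highest, with a median of 176 TPM, followed by the regulatory genes at 60.7 TPM and the activator genes at 48.6 TPM. The inhibitor and assembly genes, whose products act on the particle without being part of it, were lowest at 14.3 TPM. Subunits of the core are built into the barrel in equal numbers, yet their RNA levels differed 3.96-fold, from *Psma2* at 61.6 TPM to *Psmb4* at 244 TPM. The regulatory genes spread 11.8-fold, from *Psmd9*, a chaperone of the ATPase ring, at 12.8 TPM to *Psmd8*, a subunit of the lid, at 151 TPM. The ATPase genes *Psmc1* to *Psmc6* were the most even, within 1.84-fold of each other. Most abundant of all was *Psme1*, an activator gene induced by interferon, at 268 TPM, and least abundant among the tested genes was the chaperone gene *Psmg3* at 10.2 TPM.

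**Figure D1:**
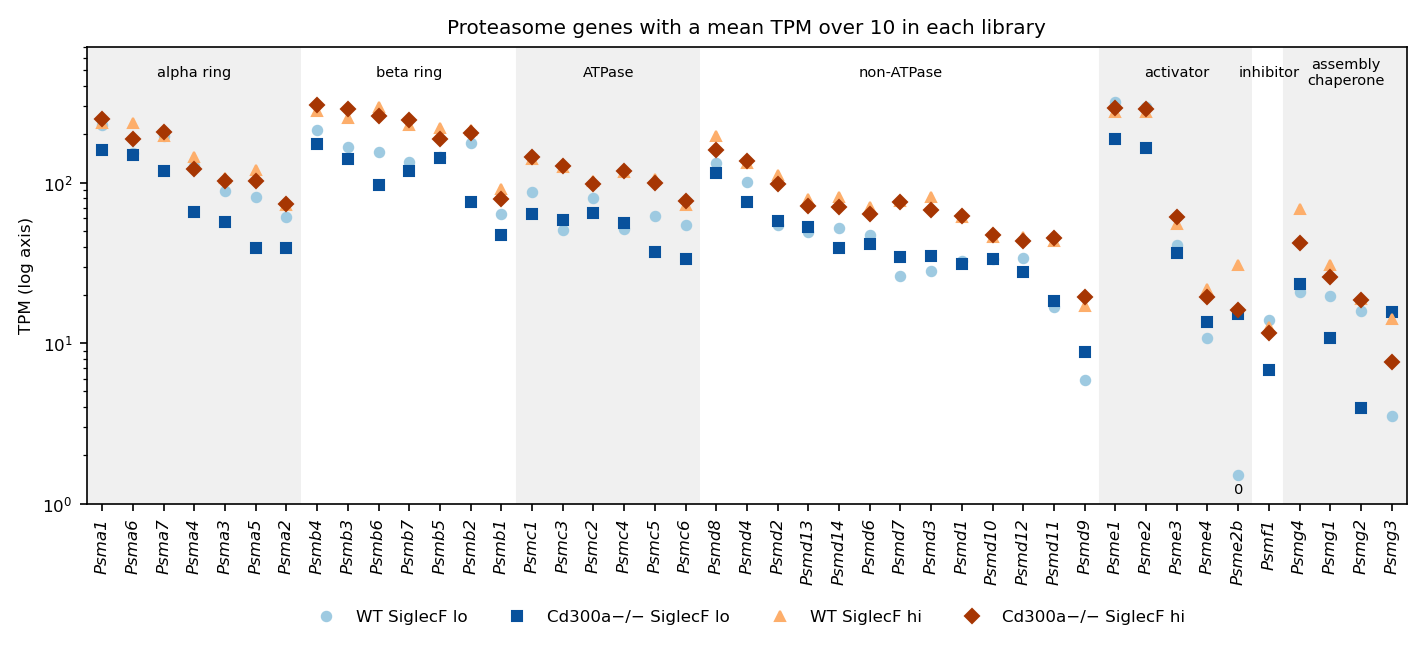
TPM (log axis) of the 43 tested proteasome genes, grouped by role and ordered by mean level within a role, where each symbol is 1 library and a 0 marks *Psme2b* without a count. The *Cd300a-/-* SiglecF lo library (dark squares) is the lowest for 30 of the 43 genes, against 46.4% of all genes tested. The WT and *Cd300a-/-* SiglecF hi libraries (triangles and diamonds) are the lowest for none, against 9.67% and 5.14% of all genes tested.

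In summed TPM, the 46 genes had 3740, 2790, 5209 and 5025 TPM. On this scale the *Cd300a-/-* SiglecF lo library was lowest and both SiglecF hi libraries were highest, although WT SiglecF lo and WT SiglecF hi were near level in TMM-scaled CPM per kb (log2 ratio -0.08). The core genes had 1991, 1423, 2693 and 2611 TPM, the regulatory genes 1008, 889, 1711 and 1633 TPM and the activator genes 667, 417, 661 and 675 TPM. The drop from WT to *Cd300a-/-* in SiglecF lo cells was thus larger in the core and activator sums than in the regulatory sum. Within the core, the alpha ring had 936, 628, 1109 and 1044 TPM and the beta ring 1055, 795, 1584 and 1568 TPM. Within the regulatory particle, the ATPases had 386, 314, 662 and 663 TPM and the other subunits 622, 575, 1049 and 969.9 TPM. The alpha ring showed the largest drop of these 4 between the SiglecF lo libraries and the non-ATPase subunits the smallest. The inhibitor and assembly genes had 73.6, 60.7, 144 and 106 TPM. Of the 43 tested genes, 30 had their lowest level in *Cd300a-/-* SiglecF lo and 13 in WT SiglecF lo, against 46.4% and 38.8% of all genes tested. The highest level was in WT SiglecF hi for 23 genes and in *Cd300a-/-* SiglecF hi for 16, against 35.2% and 42.3%. In bulk RNA, fewer cells with a high level and less RNA per cell cannot be told apart.

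3 genes stayed under the limit. *Psma8*, which replaces *Psma7* in the proteasome of the testis, had 0, 0, 15 and 3 counts. Against a floor of 3 counts in WT SiglecF lo, its level in WT SiglecF hi was at least 2.93-fold higher, and below 1 TPM. *Psmb11*, the catalytic subunit of the thymus, had 0 counts in each library. *Psmd5*, a chaperone of the ATPase ring, had 8.10, 4.09, 9.07 and 9.32 TPM, and was lowest in *Cd300a-/-* SiglecF lo.

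In SiglecF lo neutrophils, 15 of the 43 genes were lower and 2 were higher in *Cd300a-/-* than in WT. Of all 6523 genes, 19.9% were lower and 16.4% higher, 36.3% together. The median log2 ratio of the 43 genes was -0.28, against -0.02 for all genes. The share of proteasome genes that were lower exceeded that of all genes at this threshold. Both higher genes, *Psme2b* and *Psmg3*, had under 10 TPM in WT SiglecF lo, and with TPM over 10 in both libraries none of 38 genes was higher and 13 were lower, against 13.5% and 16.4% of all genes under that limit. At a log2 ratio past 1 the count was 5, against 9.37% of all genes. The counting interval excluded 0 for 32 genes, 25 lower and 7 higher, against 75.9% of all genes, 38.7% lower and 37.2% higher. The total lay near the share of all genes, and the lower genes lay above theirs.

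The length of a gene's exons moved with this ratio across all genes tested. The genes were split into 10 classes of nearly equal size by exon length. The median log2 ratio was -0.49 in the class of shortest genes (up to 1231 bases) and climbed with every class to 0.32 in the class of longest genes (from 6495 bases). The same medians in SiglecF hi neutrophils were -0.08 and 0.09. Proteasome genes are short, with a median exon length of 1490 bases against 3036, and 28 of the 43 lie in the 3 shortest classes. The roles differ in length, with medians of 1181 bases in the core, 1243 in the activators and 2060 in the regulatory genes. In those 3 classes lie 11 of the 14 core genes and 10 of the 19 regulatory genes. Each ratio was therefore also centred on the median of its class, an alternative chosen after the data were seen. With it, 8 genes were lower and 5 higher, against 15.7% and 14.2% of all genes, and the median was -0.10. The share of lower genes then lay near that of all genes. What part of the result belongs to exon length was not tested further.

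**Figure D2:**
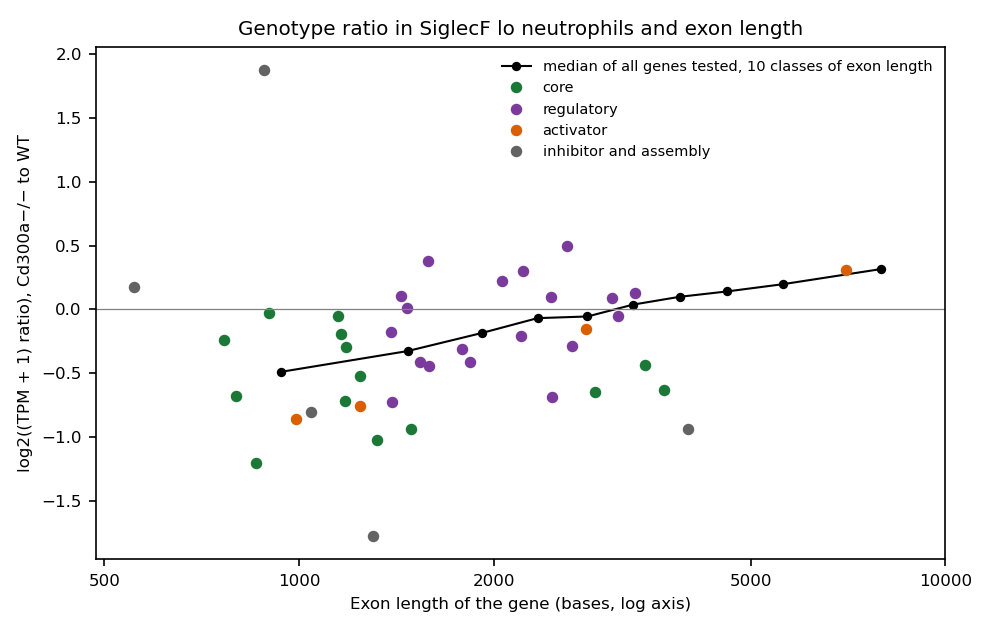
Log2((TPM + 1) ratio) of *Cd300a-/-* to WT in SiglecF lo neutrophils against exon length in bases (log axis). Colored points are proteasome genes (*Psme2b*, at 4.02, lies outside the axis) and black points joined by a line are medians of all genes tested in 10 classes of exon length, each at the median length of its class, which climb from -0.49 to 0.32.

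Within the core, all 14 tested genes had a ratio below 0, against 51.2% of all genes (9 of 14 after centring by exon length, when as many of all genes lie below 0 as above), and 8 were lower past 0.5 while none was higher. Their median was -0.58, or -0.21 after centring by exon length, with 5 genes lower. The alpha ring carried most of this, with 6 of 7 genes lower, a median of -0.65 and 4 genes lower after centring (-0.59). *Psma5* (ENSMUSG00000068749, chr3:108164242-108187290, plus strand) had 80.9, 39.3, 121 and 103 TPM, with a log2 ratio of -1.02 (-1.22 to -0.82). Its level in *Cd300a-/-* SiglecF lo was less than in any other library. *Psma6*, the exception in the ring, had 154, 149, 234 and 188 TPM, with a ratio of -0.05 (-0.18 to 0.08) that turned to 0.44 after centring by exon length. The other 5 alpha genes are named here after their values were seen. *Psma4* had a ratio of -0.94 (-1.08 to -0.79) and *Psma7* of -0.71 (-0.84 to -0.59). *Psma3*, *Psma2* and *Psma1* had ratios of -0.65, -0.63 and -0.52. After centring by exon length *Psma4*, *Psma5*, *Psma3* and *Psma2* stayed past the threshold, at -0.61, -0.70, -0.59 and -0.73. *Psma2* and *Psma3* have long exons for the ring, of 3673 and 2870 bases.

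The beta ring was lower in fewer of its genes, 2 of 7, with a median of -0.29 that turned to 0.20 after centring by exon length. *Psmb2*, which encodes a subunit without a cutting site (ENSMUSG00000028837, chr4:126571423-126603507, plus strand), had 175, 75.8, 213 and 204 TPM. Its *Cd300a-/-* SiglecF lo level stood well below the other 3, and its ratio was -1.20 (-1.38 to -1.02), or -0.71 after centring. *Psmb6*, the caspase-like catalytic subunit (ENSMUSG00000018286, chr11:70416193-70418684, plus strand), had 155, 96.6, 296 and 259.7 TPM, with a ratio of -0.68 (-0.85 to -0.51) and -0.19 after centring. It was low in both SiglecF lo libraries, and lowest without CD300a. *Psmb5*, the chymotrypsin-like subunit (ENSMUSG00000022193, chr14:54851576-54855479, minus strand), had 145, 142, 220.2 and 187 TPM, and *Psmb7*, the trypsin-like subunit (ENSMUSG00000026750, chr2:38478048-38534099, minus strand), had 134, 118, 230.2 and 245 TPM. Their ratios were -0.03 (-0.18 to 0.12) and -0.19 (-0.33 to -0.05), neither past the threshold. The structural subunit genes *Psmb3* and *Psmb4* had 167, 141, 251 and 286 TPM and 214, 174, 281 and 306 TPM, and ratios of -0.24 and -0.29. Both were lowest in *Cd300a-/-* SiglecF lo, without passing the threshold.

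The regulatory particle differed little as a group. Of its 19 tested genes 2 were lower and none higher, with a median of -0.05 that turned to 0.05 after centring by exon length, when 1 was lower and 2 were higher. Both lower genes encode ATPases, named here after their values were seen. *Psmc5* had 61.7, 37.0, 105 and 99.7 TPM and a ratio of -0.72 (-0.93 to -0.52), and *Psmc6* had 54.1, 33.3, 72.9 and 76.7 TPM and a ratio of -0.68 (-0.85 to -0.52). Each was lowest in *Cd300a-/-* SiglecF lo, and after centring by exon length *Psmc6* stayed past the threshold at -0.62 and *Psmc5* did not, at -0.40. The 6 ATPase genes had a median of -0.38, from -0.72 to 0.22. The 13 non-ATPase genes, which hold the ubiquitin receptors, the deubiquitinase and the lid, had a median of 0.01 and none past the threshold, from -0.41 to 0.50. At the upper end was *Psmd9* (ENSMUSG00000029440, chr5:123307476-123388194, plus strand) with 5.92, 8.76, 16.9 and 19.5 TPM and a ratio that rounds to 0.50 (0.14 to 0.85) and lies just under the threshold. It passed the threshold with a pseudocount of 0.1 (0.56), TMM scaling (0.54), centring on the median (0.51) and centring by exon length (0.55), the last together with *Psmd7*, named after its values were seen, at 0.71 in place of 0.38. *Psmd9* rests on 79, 129, 386 and 398 counts, the lowest of the tested regulatory genes. *Psmd8* (ENSMUSG00000030591, chr7:28873613-28880126, minus strand), the most abundant regulatory gene, had 134, 115, 195 and 161 TPM and a ratio of -0.21 (-0.31 to -0.11).

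Among the activators, the interferon-induced pair was lower in *Cd300a-/-* SiglecF lo cells. *Psme1* (ENSMUSG00000022216, chr14:55815580-55818986, plus strand) had 318, 188, 278 and 290.5 TPM and a ratio of -0.75 (-0.85 to -0.65). *Psme2*, its neighbour on the opposite strand, whose product joins that of *Psme1* in a ring (ENSMUSG00000079197, chr14:55824898-55828570, minus strand), had 298, 164, 275 and 288 TPM and a ratio of -0.86 (-0.98 to -0.74). The 3 other libraries lay close together for both genes, and *Cd300a-/-* SiglecF lo lay apart below them. Both genes are short, and after centring by exon length their ratios were -0.43 and -0.37, short of the threshold. *Psme3*, which encodes a nuclear activator, had 40.8, 36.7, 55.6 and 61.2 TPM and a ratio of -0.15 (-0.31 to 0.01). *Psme4*, an activator linked to the turnover of histones, had 10.8, 13.5, 21.7 and 19.4 TPM and a ratio of 0.31 (0.13 to 0.48), with the longest exons of the family (7022 bases) and -0.01 after centring. The remaining activator gene, *Psme2b*, is a copy of *Psme2* and is taken up below with its sequence. The median of the 5 activators was -0.15, and -0.45 without *Psme2b*.

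The inhibitor and assembly genes rest on few counts. Their median was -0.80, or -0.31 after centring by exon length. *Psmf1*, the inhibitor gene (ENSMUSG00000032869, chr2:151557732-151586106, minus strand), had 14.0, 6.85, 12.6 and 11.6 TPM and a ratio of -0.93 (-1.19 to -0.68). It was low in *Cd300a-/-* SiglecF lo and near level in the other 3 libraries, and its exons are long, so that centring gave -1.03. *Psmg1* and *Psmg2* encode partners that start the assembly of the alpha ring. *Psmg1* had 19.6, 10.8, 30.7 and 26.0 TPM from 105, 64, 281 and 213 counts, with a ratio of -0.80 (-1.22 to -0.38). *Psmg2* had 15.8, 3.93, 18.9 and 18.5 TPM from 106, 29, 216 and 189 counts, with a ratio of -1.77 (-2.26 to -1.28), the lowest of the 43 genes. Its level in *Cd300a-/-* SiglecF lo lay far below the other 3, which were close together. *Psmg3* and *Psmg4* encode the second chaperone pair. *Psmg3* (ENSMUSG00000029551, chr5:139809347-139812640, minus strand) had 3.53, 15.6, 14.2 and 7.64 TPM from 16, 78, 110 and 53 counts, with a ratio of 1.87 (1.25 to 2.50). It ran opposite to *Psmg1* and *Psmg2* in SiglecF lo cells, low in WT and high in *Cd300a-/-*. *Psmg4* had 20.7, 23.5, 68.2 and 42.0 TPM from 59, 74, 332 and 183 counts, and a ratio of 0.18 (-0.29 to 0.65) with an interval that spans 0. Centred by exon length, *Psmg2* and *Psmg3* were past the threshold at -1.45 and 2.36, *Psmg1* was not, at -0.31, and *Psmg4* was, at 0.67.

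**Figure D3:**
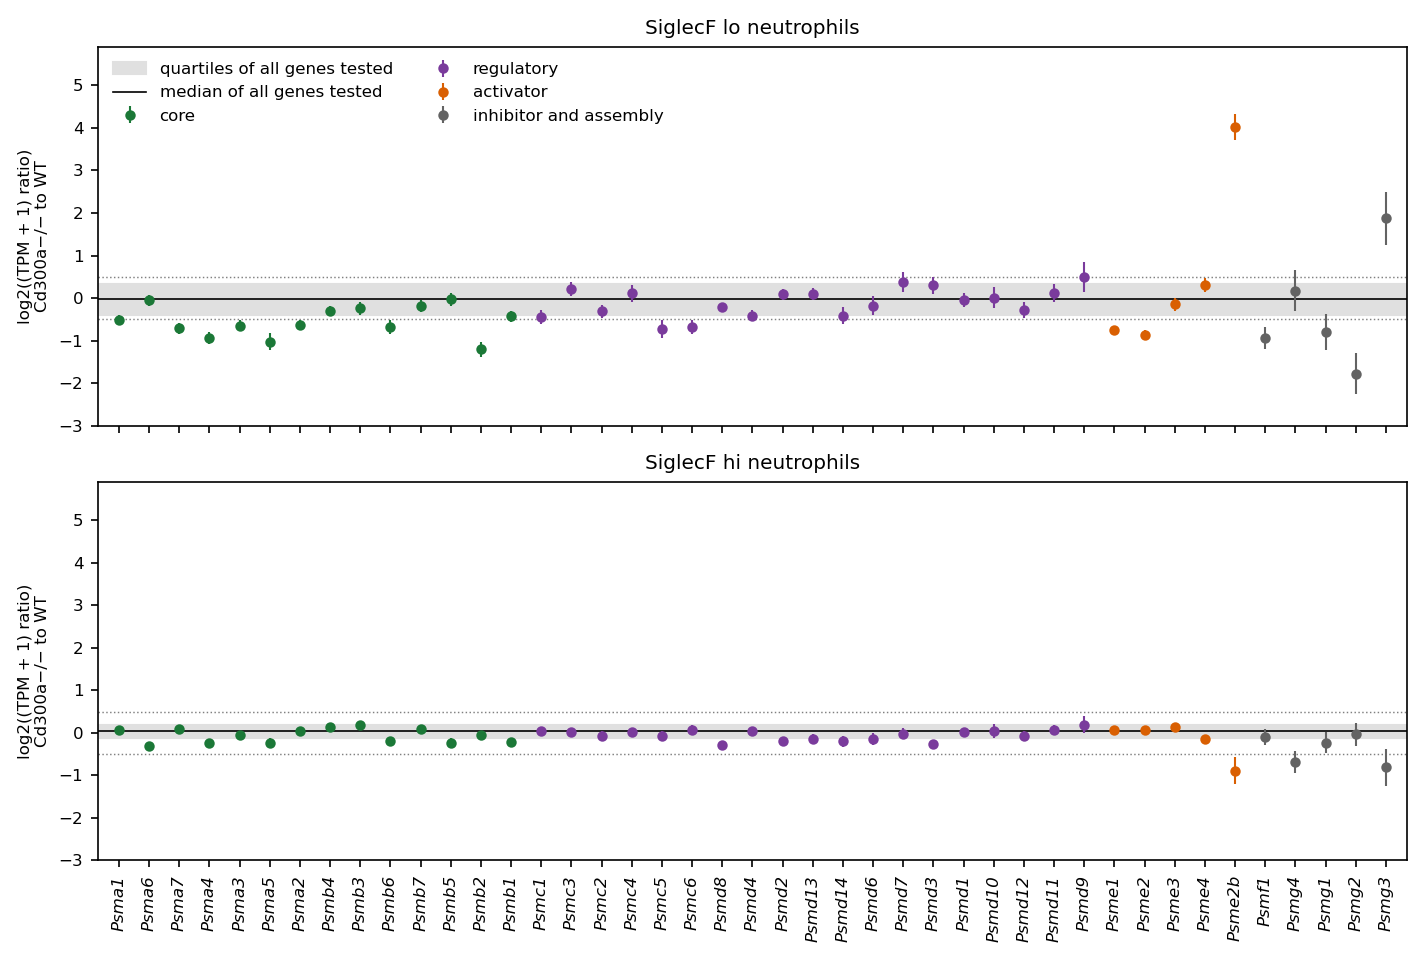
Log2((TPM + 1) ratio) of *Cd300a-/-* to WT for the 43 tested proteasome genes in SiglecF lo (top) and SiglecF hi neutrophils (bottom), with vertical bars for 95% counting intervals, dotted lines at the threshold of 0.5, a grey band for the quartiles and a black line for the median of all genes tested. In SiglecF lo cells all 14 core genes lie below 0 (9 after centring by exon length), and in SiglecF hi cells they lie between -0.31 and 0.19.

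In SiglecF hi neutrophils, 3 of the 43 genes were lower and none was higher in *Cd300a-/-* than in WT, against 3.46% and 3.31% of all genes, 6.78% together. The median was -0.06, against 0.04 for all genes. The count lay at the share of all genes, with ratios from -0.89 to 0.19. None passed a log2 ratio of 1, as 0.705% of all genes did. The interval excluded 0 for 21 genes (16 lower, 5 higher), against 62.6% of all genes (1658 of 6523 lower, 2427 higher). By the interval, lower genes outnumbered higher ones in the family, while the reverse held for all genes. The 3 lower genes were *Psme2b*, *Psmg3* and *Psmg4*, with ratios of -0.89 (-1.21 to -0.58), -0.81 (-1.24 to -0.39) and -0.69 (-0.94 to -0.43). These are also among the genes with the fewest counts. No core gene and no regulatory gene passed the threshold. The core genes had a median of -0.06 and the regulatory genes of -0.02. *Psma6* was the lowest core gene at -0.31 (-0.40 to -0.22) and *Psmb3* the highest at 0.19 (0.09 to 0.28). The catalytic subunit genes *Psmb5*, *Psmb6* and *Psmb7* had ratios of -0.23, -0.19 and 0.09. *Psme1* and *Psme2*, which differed between genotypes in SiglecF lo cells, had 0.07 (-0.01 to 0.14) and 0.07 (-0.02 to 0.15).

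The genotype ratio in SiglecF lo less that in SiglecF hi cells was taken as a difference of differences, without a test. Its median over the 43 genes was -0.25, against -0.05 for all genes tested, with 28 genes below 0 and 15 above, against 54.0% and 46.0% of all genes. The counting interval lay below 0 for 23 genes and above 0 for 11, against 38.3% and 31.3%. In the core the median difference was -0.54, with 12 of 14 genes below 0, and in the regulatory particle it was -0.03, with 10 of 19 below 0. With each ratio centred by exon length, the median over the 43 genes was -0.05, with 24 below 0, against 0.00 and 50.2% for all genes. For the whole family the difference was then small. The core median was then -0.25, with 11 of 14 below 0, and the regulatory median 0.17, with 7 of 19 below 0. Within the core it was -0.39 in the alpha ring and -0.01 in the beta ring. *Psmg2* had the lowest difference, -1.74 (-2.30 to -1.18), followed by *Psmb2* at -1.14 (-1.34 to -0.93). After centring by exon length these were -1.44 and -0.73, and *Psmf1* at -0.86 then lay below *Psmb2*. At the other end, beside the copy gene, *Psmg3* had 2.69 (1.93 to 3.45). These intervals hold counting error from all 4 libraries and none of the variation between mice.

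Between subsets, TPM shifted as a whole. Over all genes tested, SiglecF hi cells exceeded SiglecF lo cells by a median log2 ratio of 0.53 in WT and 0.61 in *Cd300a-/-*, so the ratios between subsets are also given less that median, which is called relative to the shift here. These comparisons use the same 4 libraries as those between genotypes and are not independent of them.

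In WT mice, 26 of the 43 genes were higher and none lower in SiglecF hi than in SiglecF lo neutrophils, against 51.9% and 7.47% of all genes, 59.4% together. The median was 0.59. Centred on the median of all genes, 10 were higher and 4 lower, against 19.3% and 20.9%, with a median of 0.06. With TMM scaling, which uses factors that damp the weight of the most abundant genes, 9 were higher and 4 lower, against 20.1% and 21.0%. Relative to the shift, the family as a whole was therefore near level, with higher counts near the share of all genes and lower counts under it, and the log2 ratio of its summed level turned from 0.48 in TPM to -0.08 in TMM-scaled CPM per kb. Past a log2 ratio of 1 there were 10 genes, against 23.3%, and the interval excluded 0 for 39, against 89.4%.

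In *Cd300a-/-* mice, 35 genes were higher and 1 was lower, against 56.6% and 7.97% of all genes, 64.6% together, with a median of 0.82. Centred, 10 were higher and 2 lower, against 21.2% and 23.6%, with a median of 0.21. With TMM scaling 12 were higher and 1 lower, against 24.2% and 21.9%. As in WT, the share of higher genes then lay near that of all genes and the share of lower genes under it. Past a log2 ratio of 1 there were 15 genes, against 30.3%, and the interval excluded 0 for 42, against 90.7%. More genes passed the threshold upward than in WT, and the low *Cd300a-/-* SiglecF lo library is the denominator here as it is the numerator in the genotype ratio.

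Of the 4 roles, the regulatory genes had the highest median ratio between subsets in both genotypes, in TPM, centred on the median and with TMM scaling. With centring by exon length this held in *Cd300a-/-* (0.24) and not in WT, where their median was 0.21 and that of the inhibitor and assembly genes 0.23. With TPM over 10 in both libraries, it did not hold in *Cd300a-/-*, at 0.88 against 1.00 for the inhibitor and assembly genes, of which 2 were left. In summed TPM in WT the inhibitor and assembly genes also had the higher log2 ratio, 0.97 against 0.76. In WT, 14 of 19 were higher, with a median of 0.68, and 7 stayed higher and none was lower after centring (median 0.15). In *Cd300a-/-*, 16 of 19 were higher, with a median of 0.93, and 5 stayed higher after centring (median 0.31). *Psmd9* was among those high in SiglecF hi cells, with ratios of 1.37 (1.07 to 1.68) in WT and 1.07 (0.81 to 1.33) in *Cd300a-/-*, or 0.85 and 0.46 after centring, the latter under the threshold, while *Psmd8* had 0.54 and 0.48, or 0.02 and -0.14 after centring. The regulatory genes thus differed among themselves in the size of the shift. The alpha ring had a median of 0.24 in WT (-0.29 centred on the median, -0.28 by exon length). In *Cd300a-/-* it had 0.85 (0.24 centred on the median, 0.06 by exon length). The beta ring had 0.59 in WT (0.06 centred) and 1.01 in *Cd300a-/-* (0.40 centred on the median, 0.21 by exon length). *Psmb6* was the tested core gene with the highest ratio in WT, 0.93 (0.80 to 1.06), or 0.40 centred on the median, when no core gene was higher past the threshold in WT, and 0.54 centred by exon length, when it was the 1 core gene higher. *Psmb2* and *Psmb6* both stood at 1.42 in *Cd300a-/-*, or 0.81 and 0.80 after centring.

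Among the smaller groups, the activators *Psme1* and *Psme2* did not follow the shift in WT. Their ratios of SiglecF hi to SiglecF lo were -0.19 (-0.28 to -0.11) and -0.11 (-0.21 to -0.02), or -0.72 and -0.64 relative to all genes. In *Cd300a-/-* they were 0.62 (0.53 to 0.72) and 0.81 (0.70 to 0.92), or 0.01 and 0.20 relative to all genes. The inhibitor gene *Psmf1* had -0.14 (-0.34 to 0.05) in WT and 0.68 (0.44 to 0.92) in *Cd300a-/-*, or -0.67 and 0.07 relative to all genes. These 3 genes were therefore below the general shift in WT and close to it in *Cd300a-/-*. *Psme3* had 0.44 in WT and 0.72 in *Cd300a-/-*, and *Psme4* 0.95 and 0.49. Relative to the shift these were -0.09 and 0.11 for *Psme3* and 0.42 and -0.12 for *Psme4*, none past the threshold. The chaperone genes *Psmg3* and *Psmg4* had high ratios in WT, 1.75 (1.14 to 2.35) and 1.67 (1.29 to 2.06), or 1.22 and 1.15 relative to the shift. In *Cd300a-/-*, *Psmg4* had 0.81 (0.43 to 1.19) and *Psmg3* had -0.94 (-1.40 to -0.48), the 1 gene that was lower, or 0.20 and -1.55 relative to the shift, so that the call of *Psmg4* was lost there. *Psmg1* had 0.62 in WT and 1.19 in *Cd300a-/-*, which became 0.10 and 0.58. With centring by exon length its ratio in *Cd300a-/-* was 0.39, under the threshold. *Psmg2* had 0.24 (-0.08 to 0.56) in WT and 1.98 (1.52 to 2.44) in *Cd300a-/-*, the highest of the 43 genes there, which became -0.29 and 1.37.

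The standard catalytic subunits were then set against the immunoproteasome subunits that replace them. *Psmb8*, *Psmb9* and *Psmb10* had 212, 131, 229 and 239 TPM, 98.5, 34.8, 67.7 and 55.9 TPM and 102, 51.5, 160.5 and 172 TPM. All 3 were lowest in *Cd300a-/-* SiglecF lo, with ratios of *Cd300a-/-* to WT in SiglecF lo cells of -0.69 (-0.79 to -0.59), -1.48 (-1.65 to -1.30) and -0.97 (-1.14 to -0.79), and of 0.06, -0.27 and 0.10 in SiglecF hi cells. Centred by exon length, the ratios in SiglecF lo cells were -0.36, -1.29 and -0.64, so that *Psmb8* was no longer past the threshold. The ratio of TPM of *Psmb5* to *Psmb8*, the chymotrypsin-like pair, was 0.686 (0.627 to 0.749), 1.09 (0.993 to 1.19), 0.96 (0.906 to 1.02) and 0.783 (0.734 to 0.834). The ratio of *Psmb6* to *Psmb9*, the caspase-like pair, was 1.58 (1.42 to 1.74), 2.78 (2.42 to 3.2), 4.38 (4.07 to 4.71) and 4.64 (4.27 to 5.05). The ratio of *Psmb7* to *Psmb10*, the trypsin-like pair, was 1.32 (1.19 to 1.46), 2.28 (2.02 to 2.58), 1.43 (1.35 to 1.52) and 1.42 (1.33 to 1.51). In SiglecF lo cells each of the 3 ratios was higher in *Cd300a-/-* than in WT, with intervals that do not overlap, so the standard subunit RNA made up more of each pair there. In SiglecF hi cells the ratio was lower in *Cd300a-/-* for *Psmb5* to *Psmb8*, with intervals apart, and the intervals of the genotypes overlapped for the other 2 pairs. *Psmb6* to *Psmb9* differed most between subsets, with both SiglecF hi libraries above both SiglecF lo libraries. A ratio within a library shows unequal levels of a pair and does not tell which of its genes moved.

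**Figure D4:**
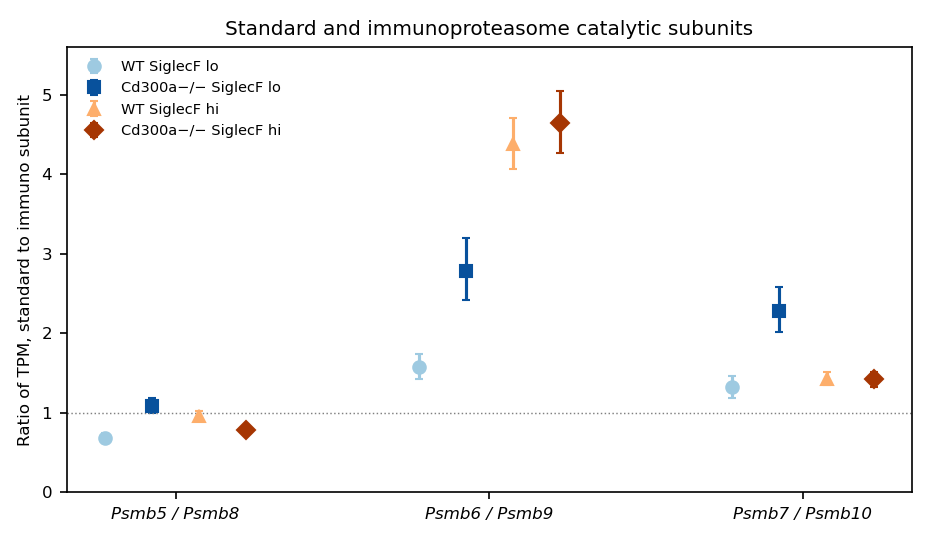
Ratio of the TPM of each standard catalytic subunit gene to that of its immunoproteasome counterpart in each library, with vertical bars for 95% counting intervals and a dotted line at equal levels. In SiglecF lo cells the *Cd300a-/-* library (dark square) lies above the WT library (light circle) for each pair, and *Psmb6* to *Psmb9* is highest in the SiglecF hi libraries, at 4.38 and 4.64.

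*Psme2b* (ENSMUSG00000078153, chr11:48836181-48837017, minus strand) had 0, 72, 226 and 106 counts, or 0, 15.2, 30.8 and 16.1 TPM. It was at 0 in WT SiglecF lo alone. Against the floor of 3 counts in that library, the level in *Cd300a-/-* SiglecF lo was at least 21.8-fold higher and that in WT SiglecF hi at least 44.1-fold higher, and the fitted log2 ratios of 4.02 and 4.99 depend on the pseudocount. In *Cd300a-/-* its ratio of SiglecF hi to SiglecF lo was 0.08 (-0.32 to 0.49). This value changed sign relative to the shift, to -0.53 centred on the median, -0.72 centred by exon length and -0.43 with TMM scaling, the first and second past the threshold. *Psme2*, its parent gene, had 1512, 917, 2385 and 2235 counts, so that *Psme2b* holds a small part of the reads of the pair. In GENCODE M21 on the build GRCm38, *Psme2b* has 1 exon and *Psme2* has 11, as for a copy made from a spliced RNA. Their coding sequences have 717 bases each and are identical at 712 of them (99.3%), with 5 mismatches, no gaps and a longest identical run of 311 bases. Of the 75-base windows of the *Psme2b* transcript, 60.2% (459 of 763) occur unchanged in a *Psme2* transcript, and of the 36-base windows 74.4% (597 of 802). Reads from such windows cannot be told apart by sequence, and how the authors' counting divided them is not given in the sources used here. In the files, *Gm12185* on the same strand spans all 837 bases of *Psme2b*, with 22, 17, 19 and 25 counts, and *9930111J21Rik1* on the same strand shares 41 bases with it, with 34, 65, 442 and 272 counts. The level of *Psme2b* is therefore uncertain.

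To show how alike the copies are, bases 394 to 543 of both coding sequences are printed from the GRCm38 genome with the GENCODE M21 exons, 5′ to 3′ on the coding strand. *Psme2* is spliced from chr14:55588049-55588479 and *Psme2b* is at chr11:48945576-48945725, both on the minus strand. Capitals mark the 3 mismatches in this stretch of 150 coding bases, which is otherwise identical.
Psme2: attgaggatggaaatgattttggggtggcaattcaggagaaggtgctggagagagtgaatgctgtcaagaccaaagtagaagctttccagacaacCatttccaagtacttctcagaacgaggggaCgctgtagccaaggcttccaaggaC
Psme2b: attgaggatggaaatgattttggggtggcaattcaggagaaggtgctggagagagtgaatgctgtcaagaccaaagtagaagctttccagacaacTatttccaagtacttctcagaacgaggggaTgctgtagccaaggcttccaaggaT

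Other genes share positions with the family. Of the 46 genes, 11 overlap another gene in the files, 4 on the same strand and 8 on the opposite strand, with *Psmd1* in both counts. Whether the counting used strand is not given in the sources used here, so reads in such overlaps cannot be assigned with certainty. Besides *Psme2b*, *Psmb7* was the gene with an overlapping neighbour of more counts. *Nek6*, on the opposite strand over 6571 bases, had 964, 1017, 1841 and 1585 counts, against 801, 774, 2343 and 2231 counts for *Psmb7*. *Nek6* exceeded *Psmb7* in both SiglecF lo libraries and not in the SiglecF hi libraries.

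All 14 tested core genes had a ratio of *Cd300a-/-* to WT below 0 in SiglecF lo cells, and 9 of them after centring by exon length. With this in view, the promoters of the family were read for shared letters. RefSeq promoters (250 bases before to 50 after a gene's start, build GRCm38.p6) were at hand for 38 of the 46 genes, in 41 windows. *Psma8*, *Psmb1*, *Psmb2*, *Psmb7*, *Psmc3*, *Psmd3*, *Psmd7* and *Psmg2* had no entry in the table. The last bases of the window lie in a GENCODE M21 transcript of the gene on the same strand for 37 of the 41 windows, and not for those of *Psma4*, *Psma7*, *Psmc5* and *Psme2b*, which are counted below all the same. The motif TGACNNNGC, the core of the element bound by NFE2L1 and NFE2L2, which drive proteasome genes, was searched on both strands. It was in 6 of the 41 windows (14.6%), against 12.4% of all 32851 promoters, so the family held it at nearly the share of all promoters. The motif CCAAT, bound by NF-Y, was in 13 windows (31.7%), against 37.4%. No window of the family held both, against 4.37% of all promoters. CCAAT was in 7 of the 13 core windows (53.8%), among them 5 of 8 alpha ring windows (62.5%), and in 5 of 18 regulatory windows (27.8%). *Psma5* and *Psma4*, with the lowest ratios of the alpha ring, held no CCAAT, while 1 of the 2 windows of *Psma6*, at -0.05, held it, and the 7 core windows include that of *Psmb11*, which had no counts. A match is a description of these letters and not a binding site.

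The 6 windows with TGACNNNGC are shown because they are the family's matches to the element of its known regulators. They belong to genes that differed between genotypes in SiglecF lo cells (*Psmb6*, *Psmc6*) and to genes that did not pass the threshold (*Psmb5*, *Psmd12*, *Psmd9*, *Psme4*), and *Psmd12* is named after its values were seen, with a ratio of -0.28 (-0.47 to -0.10). They cover *Psmb5* chr14:54618003-54618082 (minus strand), *Psmb6* chr11:70525287-70525366 (plus strand), *Psmc6* chr14:45329574-45329653 (plus strand), *Psmd12* chr11:107479278-107479357 (plus strand), *Psmd9* chr5:123228119-123228198 (plus strand) and *Psme4* chr11:30771705-30771784 (plus strand). Each has 80 bases, 5′ to 3′ on the strand of the gene, and capitals mark the motif or its reverse complement.
Psmb5: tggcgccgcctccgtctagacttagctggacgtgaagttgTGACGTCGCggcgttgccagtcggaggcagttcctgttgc
Psmb6: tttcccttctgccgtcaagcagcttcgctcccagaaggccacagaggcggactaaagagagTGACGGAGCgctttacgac
Psmc6: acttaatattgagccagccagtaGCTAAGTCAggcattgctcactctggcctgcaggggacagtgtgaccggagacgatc
Psmd12: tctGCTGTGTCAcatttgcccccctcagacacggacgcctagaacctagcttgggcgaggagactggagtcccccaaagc
Psmd9: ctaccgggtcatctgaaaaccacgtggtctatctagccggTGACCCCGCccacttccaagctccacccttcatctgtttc
Psme4: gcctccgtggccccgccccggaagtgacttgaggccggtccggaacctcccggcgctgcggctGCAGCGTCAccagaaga

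Genes that work with the proteasome outside the name rule were read from lists. Of 16 assembly, bound and shuttle factors, 15 were in the files and 13 passed the TPM limit. In SiglecF lo cells 2 of the 13 were lower and 1 was higher in *Cd300a-/-*, against 19.9% and 16.4% of all genes, so these shares lay under those of all genes. *Usp14*, a deubiquitinase of the regulatory particle, had 10.2, 3.66, 20.7 and 17.9 TPM and a ratio of -1.27. *Uchl5*, another deubiquitinase, had 36.2, 23.7, 52.5 and 59.8 TPM and -0.59 (-0.81 to -0.37). Both were lowest in *Cd300a-/-* SiglecF lo. The shuttle gene *Ubqln2* was higher, with 11.1, 18.7, 24.6 and 26.0 TPM and 0.71 (0.47 to 0.94). *Sem1*, a small subunit of the lid and the most abundant of the list, had 456, 333, 324 and 317 TPM and -0.45 (-0.53 to -0.38). None of the 13 passed the threshold between genotypes in SiglecF hi cells. Between subsets 8 were higher and none lower in each genotype, against 51.9% higher of all genes in WT and 56.6% in *Cd300a-/-*. Relative to the shift of all genes, 3 of the 13 lay higher and 2 lower in WT, against 19.3% and 20.9%, and 2 higher and 1 lower in *Cd300a-/-*, against 21.2% and 23.6%. The same shares of all genes apply to the lists that follow. With each ratio centred on its length class, 2 genes were lower and 1 was higher in *Cd300a-/-* SiglecF lo cells, with *Usp14* at -1.41, *Ubqln2* at 0.67 and *Uchl5* at -0.40. The second lower gene was then *Pomp*, which encodes a chaperone of the core and is named after its values were seen, at -0.62 in place of -0.42.

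All 9 transcription factors of proteasome genes and their processing enzymes passed the limit. In SiglecF lo cells 2 were higher in *Cd300a-/-* and none lower, *Bach1*, a repressor that competes with NFE2L2, with 62.6, 98.5, 75.3 and 81.6 TPM and 0.65 (0.56 to 0.73), and *Ddi2*, the protease that activates NFE2L1, with 8.29, 13.1, 22.1 and 21.2 TPM and 0.60 (0.44 to 0.76). *Nfe2l2*, the most abundant of them, had 626, 484, 642 and 762 TPM and -0.37 (-0.42 to -0.33), and *Nfe2l1*, named after its values were seen, had 24.6, 26.2, 41.3 and 43.6 TPM and 0.09 (-0.06 to 0.24). Both *Bach1* and *Ddi2* fell under the threshold with centring by exon length, at 0.45 and 0.28, which left 0 genes of the list higher. None passed the threshold between genotypes in SiglecF hi cells. Between subsets 3 were higher in WT and 5 in *Cd300a-/-* and none was lower, or 2 higher and 2 lower in WT and 1 higher and 4 lower in *Cd300a-/-* after centring. Of 14 genes of ubiquitin, its activating and conjugating enzymes and the Cdc48 complex, 13 passed the limit and none of them passed the threshold between genotypes in either subset. *Ubb*, the most abundant, had 2981, 2953, 3485 and 3588 TPM. With centring by exon length 1 gene was lower in SiglecF lo cells, *Ube2n*, named after its values were seen, which encodes a conjugating enzyme, at -0.54 in place of -0.44. Between subsets 4 were higher in WT and 7 in *Cd300a-/-*, none was lower, and after centring 1 was lower in WT.

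RNA of other cell types was read beside these results. The 10 macrophage and monocyte markers all passed the limit and summed to 2892, 2716, 7040 and 6350 TPM, led by *C1qb*. Their sum was higher in both SiglecF hi libraries, as was the summed TPM of the 46 proteasome genes. Between subsets, 6 of the 10 markers were higher and 1 lower in WT, and 8 were higher and none lower in *Cd300a-/-*. Relative to the shift of all genes, 6 were higher and 2 lower in WT, against 19.3% and 20.9% of all genes. In *Cd300a-/-*, 4 were then higher and 2 lower, against 21.2% and 23.6%. Of the proteasome groups, the activator sum was not higher in WT SiglecF hi than in WT SiglecF lo (661 against 667 TPM). The 7 fibroblast markers (6 over the limit) summed to 964, 979.8, 2088 and 1475 TPM, led by *Dcn*. The 6 endothelial markers (5 over the limit) summed to 147, 52.0, 80.5 and 103 TPM, led by *Pecam1*, and all 5 were lower in *Cd300a-/-* SiglecF lo than in WT SiglecF lo. The 7 cardiomyocyte markers (4 over the limit) summed to 51.5, 26.6, 54.5 and 94.1 TPM, led by *Mb*, with 2 of the 4 lower in *Cd300a-/-* SiglecF lo. The 8 eosinophil markers (1 over the limit) summed to 173, 87.8, 119 and 120.1 TPM, nearly all of it *Ear2*, and the defining genes *Prg2*, *Epx*, *Ear1*, *Ear6* and *Alox15* were at 0 in both SiglecF lo libraries. The 7 lymphocyte markers summed to 9.63, 10.3, 3.38 and 7.96 TPM, none over the limit, with *Trac* at 0 in each library and *Cd79a* the most abundant. The endothelial, cardiomyocyte, eosinophil and macrophage sums were thus lowest in *Cd300a-/-* SiglecF lo, the library with the lowest proteasome sum, and the sum of the neutrophil genes was highest there. The fibroblast sum was lowest in WT SiglecF lo instead, and the lymphocyte sum in WT SiglecF hi. Of the 10 macrophage and monocyte markers, 1 was higher and 1 lower in *Cd300a-/-* SiglecF lo than in WT SiglecF lo, with a median of -0.07. What part these sums had in the result was not tested.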

How the data were processed

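RNA-Seq of 4 libraries was used, each from neutrophils of 8 hearts, with ISOGEN extraction, poly(A) RNA, NEBNext Ultra II libraries and paired-end reads from a NextSeq. The authors used CLC Genomics Workbench. Mapping settings, annotation release and use of strand are not given in the sources used here. For each gene the authors deposited a whole-number count (whether of reads or pairs is not stated), RPKM and TPM. The signal that the authors deposited under the name CPM is CPM times 1 factor per library, and was used only as a check of the TMM factors.

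TPM as deposited gave levels and log2((TPM + 1) ratios), for genes with a mean TPM over 10. Intervals (95%) used the Poisson error of the counts, and the floor for a bound was 3 counts in the library at 0. Exon lengths were recovered from counts and RPKM. TMM factors came from edgeR 4.0.16 in R 4.3.3, and coding sequences were aligned with Biopython 1.88. Tables used pandas 2.3.3 and numpy 2.4.6 in Python 3.11.15, and plots matplotlib 3.10.9. The calculations were tested on simulated counts.

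Named genes were *Psmb5* to *Psmb10*, all *Psme*, *Psmf* and *Psmg* genes, the 3 highest and 3 lowest ratios of each comparison, the most and least abundant gene of each group and those under the limit, and in the lists of related genes those past 0.5 or most abundant, where genes past 0.5 between subsets are given only as counts. The genes and lists were chosen with earlier results of these data known, and 1 listed gene is not reported here.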

Additional observations from a re-analysis of the deposited data

Results flagged for a closer look

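For 7 genes the ratio of *Cd300a-/-* to WT had opposite signs in the subsets, with counting intervals that exclude 0 in both. The same held for 15.8% of all genes tested, so 7 of 43 lies near the share of all genes. The value given is the log2 ratio in SiglecF lo less that in SiglecF hi cells. 3 of them are structural or catalytic genes of the beta ring that were lower in *Cd300a-/-* SiglecF lo cells and higher in *Cd300a-/-* SiglecF hi cells. *Psmb3* had -0.43, from -0.24 in SiglecF lo and 0.19 in SiglecF hi cells. *Psmb4* had -0.42, from -0.29 in SiglecF lo and 0.12 in SiglecF hi cells, and *Psmb7* had -0.28, from -0.19 in SiglecF lo and 0.09 in SiglecF hi cells. The other 4 ran the other way. *Psme4*, the activator gene with the longest exons, had 0.46, from 0.31 in SiglecF lo and -0.15 in SiglecF hi cells. *Psmd3*, a subunit of the lid, had 0.57, from 0.30 in SiglecF lo and -0.27 in SiglecF hi cells. The assembly chaperone gene *Psmg3* had 2.69, from 1.87 in SiglecF lo and -0.81 in SiglecF hi cells, and rests on 16, 78, 110 and 53 counts. *Psme2b* had 4.91, from 4.02 in SiglecF lo and -0.89 in SiglecF hi cells, with 0 counts in WT SiglecF lo, so that its size depends on the pseudocount. Apart from *Psmg3* and *Psme2b*, none of these ratios passed 0.5 in either subset. After centring by exon length the ratios in SiglecF lo cells were 0.25 for *Psmb3*, 0.20 for *Psmb4*, 0.30 for *Psmb7* and -0.01 for *Psme4*, so that their signs in SiglecF lo cells turned. The differences between the subsets then were -0.01, -0.01 and 0.14 for *Psmb3*, *Psmb4* and *Psmb7*. For *Psme4*, *Psmd3*, *Psmg3* and *Psme2b* they were 0.23, 0.68, 3.10 and 5.32. The differences between the subsets were not tested, since each group is 1 library.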

How the results depend on the processing

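No paired analysis was possible because each group is 1 library, and no library could be left out. Alternatives were a pseudocount of 0.1, limits on TPM (a mean over 1, over 10 in both libraries of a comparison, or over 10 in any library), a threshold of 1, the counting interval alone, TMM-scaled CPM, centring on the median, and, chosen after seeing the data, centring within 10 classes of exon length and leaving out *Psme2b*. The pseudocount, TPM over 10 in any library and a mean TPM over 1 kept all counts of genes within 1.5 times. Of 120 counts 82 stayed within that range and 38 moved, and of 341 values of named genes with counts 229 kept direction and side of the threshold, 58 kept direction and lost the call, 16 kept direction and gained it, and 38 changed sign. Of these 38, 35 were under the threshold on both sides, 2 passed it with the other sign and 1 was past it before. The 12 catalytic ratios are the same in RPKM by construction, since RPKM and TPM differ by 1 factor per library, so that alternative says nothing of their stability.

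*Cd300a-/-* against WT in SiglecF lo: TPM over 10 in both libraries left 0 higher, and leaving out *Psme2b* left 1. Centring by exon length gave 5 higher, 8 lower and a median of -0.10, and took the median difference between the subsets from -0.25 to -0.05. A threshold of 1 left 5 genes, 3 lower, and the interval alone gave 32, 7 higher and 25 lower. In SiglecF hi, a threshold of 1 left 0 genes, 0 of them lower. The interval gave 21 (5 higher, 16 lower), against 2427 higher and 1658 lower of all 6523 genes. There, the log2 ratio of the summed level in TMM-scaled CPM per kb was -0.08 in place of -0.05.

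SiglecF hi against SiglecF lo in WT: TMM gave 13 genes (9 higher, 4 lower, median 0.05), centring 14 (10 and 4, median 0.06), exon length 13 (10 and 3, median 0.15, against 19.1% and 20.7% of all genes), a threshold of 1 left 10, 10 of them higher, and the interval gave 2 lower. The log2 ratio of the summed level turned from 0.48 to -0.08 per kb with TMM. In *Cd300a-/-*: TPM over 10 in both libraries left 0 lower, TMM gave 13 genes (12 higher, median 0.25), centring 12 (10 and 2, median 0.21), exon length 9 (7 and 2, median 0.15, against 21.3% and 22.8%), and a threshold of 1 left 15, 15 of them higher and 0 lower. The summed ratio went from 0.85 to 0.27. *Psme1* reversed, from 0.62 to -0.20 with centring by exon length. A stricter limit or threshold keeps fewer genes, and TMM and centring take out the shift of all genes. Beyond that construction, the cause was not tested.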
